A study of Mus musculus with 12 samples.

Results

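The serpins are a family of protease inhibitors, and 40 mouse genes whose symbol begins with Serpin were measured here of 18194 genes in all. A gene was taken as a member by its symbol in the array's platform annotation and read from its brightest probe set by mean signal on all 12 arrays. The 40 genes had 56 probe sets that name a single gene. A further 3 probe sets name several Serpin genes each, 9 symbols in all, and 6 of those symbols were found on these shared probe sets alone. These 3 probe sets are described apart.

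An inhibitory serpin offers a protease a bait loop, and on cleavage it traps the enzyme in a covalent complex that destroys both proteins. The liver is the main source of the serpins of blood plasma: antithrombin and heparin cofactor II restrain clotting, antiplasmin restrains clot lysis, C1 inhibitor restrains complement, and alpha-1-antitrypsin and antichymotrypsin restrain neutrophil proteases. A few members no longer inhibit proteases and carry steroid or thyroid hormone or chaperone collagen, and the B branch stays inside cells. Inbred mice carry expanded clusters of near-identical copies of the alpha-1-antitrypsin, antichymotrypsin and B-branch genes, so that a probe set may read more than the gene it names.

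Liver RNA came from adult female mice of B6.129 background in 4 groups with 3 samples each. Wild type mice (WT, Esr1+/+) and mice without a working copy of Esr1, which encodes estrogen receptor alpha (aERKO, Esr1-/-), were fed an NIH-31 diet, called the normal diet, or a high-fat diet with 60 kcal% fat for 2 weeks. The labels name no Cre driver or tissue for the knockout, and the diets were not stated to match in other ingredients. The labels do not say that replicates are separate animals, so a p-value reflects the spread among these samples alone, and that spread may be technical. The signals are MAS5 values, the deposited intensities scaled to a common mean on each array, and their median over all probe sets lay between 75.6 and 114 on the 12 arrays. Differences are given on the log2(signal + 16) scale with their standard error (SE), which understates the change of dim genes. They come from 1 limma model over all 12 arrays, with p-values adjusted by Benjamini-Hochberg over 12264 genes that exceeded the array median on at least 3 arrays. Genes with an adjusted p under 0.05 were called. Values of a gene's second probe set, or of a probe set shared by several genes, come from a separate fit of the same model, adjusted over the 25412 probe sets that passed the same filter.

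The genotype labels and the tissue were checked first. Esr1 gave -2.07 ± 0.20 for aERKO against WT on the normal diet (adjusted p = 5.75e-05) and -2.05 ± 0.20 on the high-fat diet (adjusted p = 8.55e-05). The 6 hepatocyte markers averaged 15.1 to 15.7 log2 units on every array. Transcripts of other organs stood out on some arrays. The mean of the 8 pancreatic acinar markers on the array, of 11 listed, was 13.7 in WT normal diet replicate 2, 13.5 in aERKO normal diet replicate 1, and 12.5 and 9.97 in replicates 3 and 2 of WT on the high-fat diet, against 5.59 to 6.68 on the other arrays. The 10 skeletal muscle markers averaged 10.6 in aERKO normal diet replicate 1 and 8.82 in aERKO high-fat replicate 2, and 5.91 to 7.38 elsewhere. Results that these arrays touch are given with their values below.

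Of the 40 Serpin genes, 24 passed the filter on dim genes and 16 did not, and 17 of the 24 were above the array median on all 12 arrays. Those that passed include the plasma serpins of the hepatocyte: alpha-1-antitrypsin (Serpina1b, Serpina1c), antichymotrypsin (Serpina3n), both hormone carriers (Serpina6, Serpina7), antithrombin (Serpinc1), heparin cofactor II (Serpind1), the protein Z-dependent inhibitor (Serpina10), antiplasmin (Serpinf2) and C1 inhibitor (Serping1). The 16 that did not pass were Serpina1f, Serpina3a, Serpina3i, Serpina5, Serpina9, Serpinb11, Serpinb12, Serpinb1b, Serpinb2, Serpinb3a, Serpinb5, Serpinb6c, Serpinb7, Serpinb9c, Serpinb9d and Serpinb9g. Their signals ran from 1.64 to 109.6, and 14 of them exceeded the array median on 0 arrays. Serpina5 (protein C inhibitor) was among these dim genes. By chromosome, 8 of the 13 members on chromosome 12, where the A branch is clustered, passed the filter. On chromosome 13, which holds one B-branch cluster, 6 of 11 passed, and on chromosome 1, with the other B-branch cluster and antithrombin, 2 of 8 passed. The other 8 members, on chromosomes 2, 3, 7, 11, 16 and X, all passed.

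**Figure D1:**
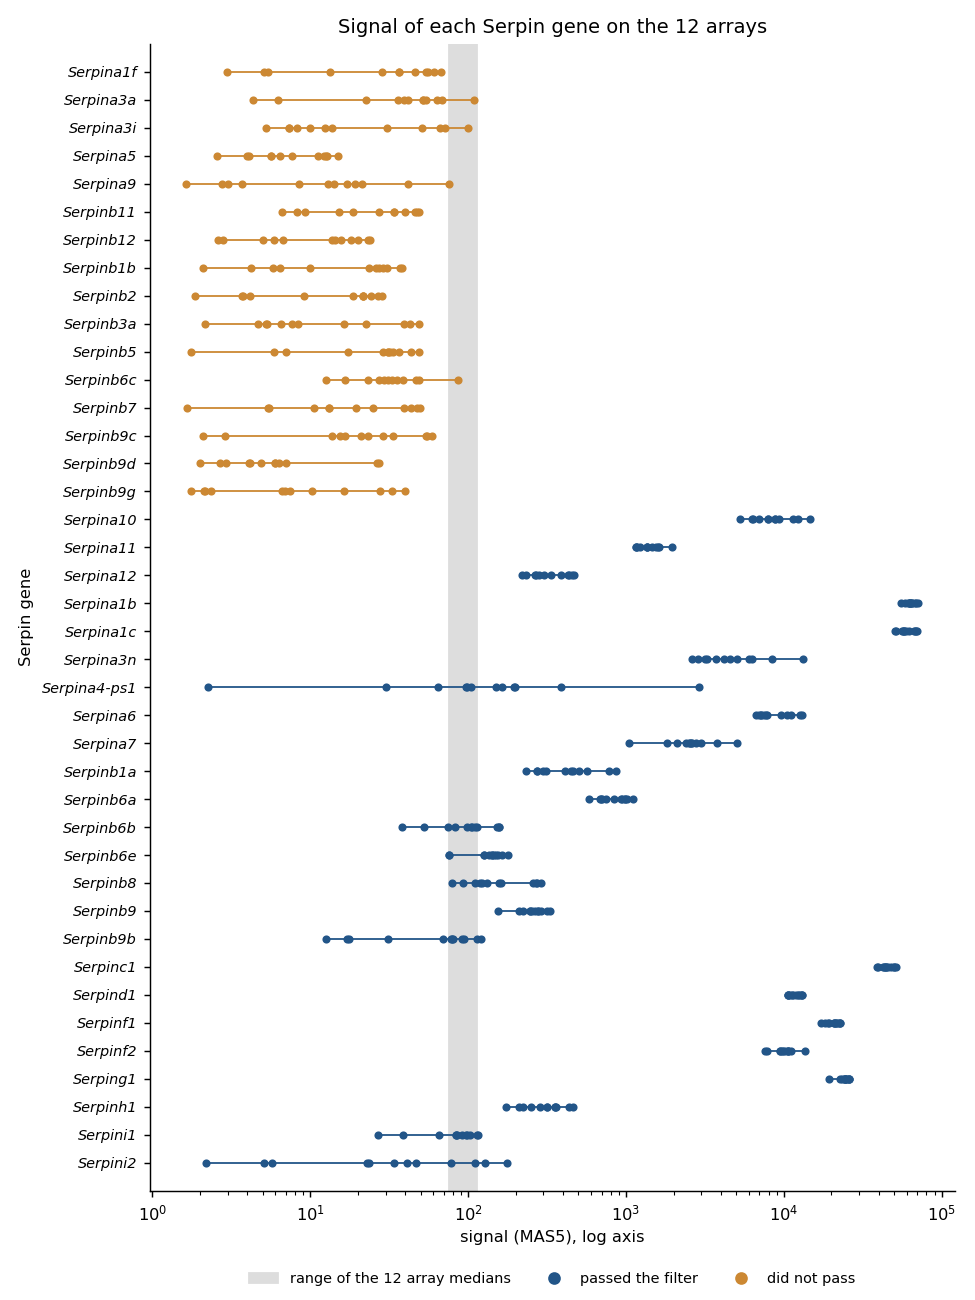
Signal of each of the 40 Serpin genes (rows) on the 12 arrays (dots) on a log axis, with the range of the array medians shaded. The 16 genes that did not pass the filter lie at or left of the shaded band, and most genes that passed lie to the right of it on every array; brightness of different probe sets is not comparable between genes.

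The question of the design was whether loss of the receptor, the high-fat diet or both altered liver transcripts. Corticosteroid-binding globulin (Serpina6) was the single Serpin gene called in any comparison: its signal was lower in aERKO than in WT on the high-fat diet. No Serpin gene was called for genotype on the normal diet, for diet in either genotype or for the interaction, which is the diet difference in aERKO minus that in WT. By limma the counts at an unadjusted p under 0.05 among the 24 genes were 6 for genotype on the normal diet, 4 for genotype on the high-fat diet, 4 for diet in WT, 2 for diet in aERKO and 0 for the interaction. In the same order, 12.1%, 15.2%, 8.28%, 10.3% and 5.94% of all 12264 genes were under that unadjusted p. After adjustment, 1.22% of all genes were called for genotype on the normal diet, 1.98% for genotype on the high-fat diet (0.881% lower in aERKO), 0.0734% for diet in WT, 0.481% for diet in aERKO and 0% for the interaction. A count of 0 or 1 in 24 genes is near these background shares.

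The medians of the 24 differences were small in all 5 comparisons. They were -0.06 for genotype on the normal diet, -0.08 for genotype on the high-fat diet, -0.09 for diet in WT, -0.01 for diet in aERKO and -0.01 for the interaction, against -0.05, -0.03, -0.005, 0.02 and 0.02 over all genes tested. Of the 24 genes, 16 had a lower mean in aERKO on the normal diet and 15 on the high-fat diet. Signs were mixed within the family, and the members are described by role below.

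The hormone carriers come first. Corticosteroid-binding globulin, made by hepatocytes, binds most of the glucocorticoid in plasma and releases it when proteases cut its loop. Serpina6 (chromosome 12) had signals of 12704, 9567 and 13021 in WT on the high-fat diet and 6699, 6917 and 7534 in aERKO on the same diet. Every WT sample was above every aERKO sample. Serpina6 fell by 0.73 ± 0.14 in aERKO, a signal 1.65-fold lower (95% interval -1.02 to -0.43, adjusted p = 0.0142, n = 3 per group). In a bulk sample, fewer cells of a type and less RNA per cell cannot be told apart.

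On the normal diet the Serpina6 signals were 11098, 10510 and 7812 in WT and 7120, 7130 and 7677 in aERKO. The groups again did not overlap, though the lowest WT sample lay close to the highest aERKO sample. This difference of -0.41 ± 0.14 did not pass (adjusted p = 0.239). Diet gave 0.27 ± 0.14 in WT (adjusted p = 0.643) and -0.05 ± 0.14 in aERKO (adjusted p = 0.937), and the interaction of -0.32 ± 0.20 did not pass either (adjusted p = 0.855), so the genotype difference was not shown to differ between diets. The 6 aERKO samples spanned 6699 to 7677, and the 6 WT samples 7812 to 13021.

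The Serpina6 call was near the threshold. It was lost with each array centred on its median (-0.61, adjusted p = 0.277), without the intensity trend of the variances (adjusted p = 0.0802), and without WT high-fat replicate 1 (adjusted p = 0.0852) or 3 (0.0628) or aERKO high-fat replicate 1 (0.0739) or 2 (0.0701), while the difference stayed between -0.87 and -0.61 in all 26 alternatives. WT high-fat replicates 2 and 3 carried the acinar transcripts. Without the 4 arrays with a high acinar score, replicate 1 is the single WT high-fat array left, and the difference was -0.85. With acinar and muscle scores as covariates it was -0.65 (adjusted p = 0.0990), and the call was lost.

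Thyroxine-binding globulin (Serpina7, chromosome X) carries thyroid hormone in plasma. It gave 5063, 2968 and 2632 in WT on the normal diet, 2527, 1044 and 2521 in WT on the high-fat diet, 2384, 2794 and 2107 in aERKO on the normal diet, and 3770, 2583 and 1809 in aERKO on the high-fat diet. In WT the high-fat samples all lay below the normal diet samples, by a narrow gap, and in aERKO the groups overlapped. The diet difference in WT was -0.85 ± 0.34 (adjusted p = 0.497), that in aERKO was 0.11 ± 0.34 (adjusted p = 0.944), and the interaction was 0.96 ± 0.48 (adjusted p = 0.817). None passed, and the interval of the interaction ran from -0.06 to 1.98.

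**Figure D2:**
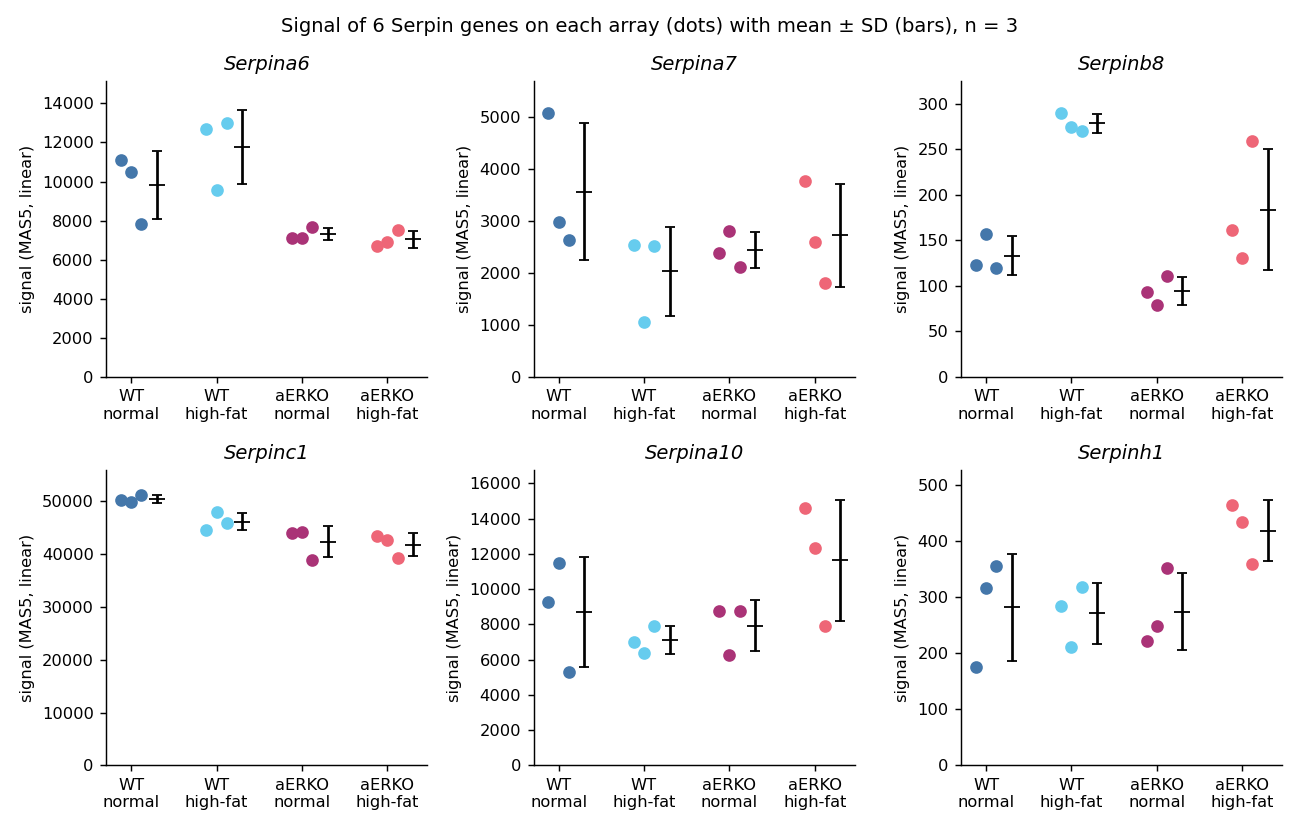
Signal (linear, axes from 0) of 6 Serpin genes in the 4 groups, with 1 dot per array and bars for mean ± SD, n = 3. The Serpina6 panel shows all 6 aERKO samples at or below 7677 and all 6 WT samples at or above 7812; the Serpinb8 panel shows the high-fat samples above the normal diet samples of the same genotype.

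Alpha-1-antitrypsin, which protects tissue from neutrophil elastase, is encoded in mice by a set of neighbouring copies. The bases just upstream of Serpina1b and Serpina1c are shown because these copies, whose values are set side by side here, are nearly the same even outside the transcript. They were taken from RefSeq (build GRCm38.p6, minus strand of chromosome 12) as the 250 bases before the annotated start, at chr12:103738190-103738439 for Serpina1b and chr12:103904951-103905200 for Serpina1c. In a global alignment 229 of 252 columns were the same (90.9%). Capitals mark matches to GTTAAT, a half-site of the hepatocyte factor HNF1, and to TTGCNNAA, a motif of the C/EBP factors, each searched on both strands.

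Serpina1b: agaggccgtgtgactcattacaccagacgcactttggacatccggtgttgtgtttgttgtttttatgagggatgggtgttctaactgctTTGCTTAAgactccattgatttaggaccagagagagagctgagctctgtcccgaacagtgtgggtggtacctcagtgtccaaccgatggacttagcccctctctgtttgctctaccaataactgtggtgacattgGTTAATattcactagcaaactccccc

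Serpina1c: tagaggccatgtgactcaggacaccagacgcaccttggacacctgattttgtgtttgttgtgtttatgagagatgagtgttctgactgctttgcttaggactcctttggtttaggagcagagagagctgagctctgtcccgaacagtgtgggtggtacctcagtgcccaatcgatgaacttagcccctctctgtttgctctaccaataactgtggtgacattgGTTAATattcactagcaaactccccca

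Both sequences held GTTAAT close to the start, with its first base at -26 in Serpina1b and -27 in Serpina1c. Serpina1b also held TTGCNNAA at -161, which the other sequence lacked. GTTAAT was found in 5 of the 19 upstream sequences matched to members that passed the filter (26.3%: Serpina1b, Serpina1c, Serpina7, Serpinb8 and Serpini2) and in 6.43% of all 32851 sequences of the same length. TTGCNNAA was found in 3 of the 19 (15.8%) and 9.56% of all, and AGGTCA, a half-site of estrogen and other nuclear receptors, in 4 of the 19 (21.1%: Serpina11, Serpinb6e, Serpinf1 and Serpinf2) and 14.0% of all. The STAT site TTCNNNGAA was found in 2 (10.5%) against 7.02%, and TATAAA in 2 (10.5%) against 12.4%. No upstream sequence was available for Serpina6 or Serpina10, so the called gene was not searched for any motif. All 32851 sequences were taken without the filter on dim genes and were not reduced to a single sequence per gene, so the shares compare unlike sets. Serpina1b and Serpina1c, nearly the same in sequence, were counted apart. The motifs can overlap one another, and a match describes letters only.

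Serpina1c gave 67747, 69245 and 69096 in WT on the normal diet and 56588, 62199 and 51202 in aERKO. On the high-fat diet it gave 57487, 66496 and 57958 in WT and 55613, 59644 and 50222 in aERKO. The normal diet groups did not overlap and the high-fat groups did. Serpina1b gave 68950, 67254 and 71172 in WT on the normal diet, where aERKO gave 62937, 65213 and 55494, and its high-fat samples lay between 58501 and 64764. Genotype on the normal diet gave -0.28 ± 0.09 for Serpina1c (adjusted p = 0.203) and -0.18 ± 0.07 for Serpina1b (adjusted p = 0.346). Neither passed. Under quantile normalization Serpina1b was 0.04, a change of sign, and Serpina1c was -0.04, and with each array centred on its median Serpina1c was -0.12. A second probe set of Serpina1b gave -0.34 ± 0.10 (adjusted p = 0.203).

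The probe sets shared by several copies had values of the other sign on the normal diet. A probe set for Serpina1d and Serpina1a gave 0.07 ± 0.08 for genotype on the normal diet (adjusted p = 0.792). One for Serpina1e, Serpina1c and Serpina1b gave 0.25 ± 0.18 (adjusted p = 0.661), and for diet in WT 0.50 ± 0.18 (adjusted p = 0.507), where Serpina1c gave -0.18 ± 0.09 and Serpina1b -0.14 ± 0.07. The probe sets of the alpha-1-antitrypsin copies thus differed in sign, and none of these differences was called.

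The small negative values of these very bright probe sets were shared by bright genes at large. Of the 99 genes with a mean of at least 15 log2 units, 82 were lower in aERKO on the normal diet, with a median of -0.17, and albumin (Alb) fell by 0.50 ± 0.10 (adjusted p = 0.0266). In WT, 86 of the 99 were lower on the high-fat diet, with a median of -0.13. Centring each array on its median moved the median of all genes by 0.158 for genotype on the normal diet and by 0.115 on the high-fat diet. The part of array scaling in the values of the bright Serpin genes was not tested.

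Antichymotrypsin (Serpina3n) rises in the acute phase response. Its signals varied widely within groups: 6266, 5076 and 2626 in WT on the normal diet, 3694, 2872 and 4182 in WT on the high-fat diet, 13282, 3147 and 4590 in aERKO on the normal diet, and 8377, 6031 and 3255 in aERKO on the high-fat diet. The groups overlapped in all 4 comparisons of 2 groups, and genotype gave 0.40 ± 0.46 on the normal diet (adjusted p = 0.767) and 0.63 ± 0.46 on the high-fat diet (adjusted p = 0.569). The 13 acute phase genes of a separate list averaged 13.0 to 14.7 log2 units over the arrays, with 14.7, the highest, on aERKO normal diet replicate 1, the array where Serpina3n was highest too. None of the 13 was called in any comparison; Orm2 gave 1.98 ± 0.70 for genotype on the high-fat diet (adjusted p = 0.187).

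Among inhibitors of clotting, antithrombin (Serpinc1, chromosome 1) blocks thrombin and factor Xa when bound to heparan sulfate. It gave 50119, 49900 and 51167 in WT on the normal diet, 44572, 47888 and 45866 in WT on the high-fat diet, 43945, 44160 and 38895 in aERKO on the normal diet, and 43314, 42658 and 39278 in aERKO on the high-fat diet. The WT samples lay above the aERKO samples of the same diet on both diets. Genotype gave -0.25 ± 0.07 on the normal diet (adjusted p = 0.146) and -0.14 ± 0.07 on the high-fat diet (adjusted p = 0.381), and the lower quartile of the 99 bright genes on the normal diet was -0.24. With each array centred on its median the normal diet value was -0.09 (adjusted p = 0.891), and under quantile normalization it was -0.15.

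Heparin cofactor II (Serpind1, chromosome 16), a thrombin inhibitor, gave 10649, 11370 and 10688 in WT on the normal diet and 12762, 13100 and 12312 on the high-fat diet. The WT groups did not overlap, and the difference of 0.22 ± 0.09 did not pass (adjusted p = 0.490). In aERKO the samples were 10673, 12414 and 10995 on the normal diet and 13019, 11849 and 11316 on the high-fat diet, which overlapped, with a difference of 0.09 ± 0.09 (adjusted p = 0.799). The Serpina10 product inhibits factor Xa together with protein Z. Serpina10 gave 9285, 11464 and 5297 in WT on the normal diet, 7005, 6384 and 7933 in WT on the high-fat diet, 8749, 6251 and 8750 in aERKO on the normal diet, and 14626, 12354 and 7918 in aERKO on the high-fat diet. A pair of the aERKO high-fat samples lay above all others and the third did not. Genotype on the high-fat diet gave 0.67 ± 0.26 (adjusted p = 0.222), diet in aERKO 0.53 ± 0.26 (adjusted p = 0.519) and the interaction 0.75 ± 0.37 (adjusted p = 0.817). The first of these passed with array quality weights (adjusted p = 0.0297) and in no other alternative. Protein Z itself (Proz) gave 0.41 ± 0.11 for diet in WT (adjusted p = 0.310).

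Antiplasmin (Serpinf2, chromosome 11) inactivates plasmin. It gave 9415, 10635 and 7831 in WT on the normal diet and 11163, 13536 and 10543 on the high-fat diet, groups that overlapped by a narrow margin. The difference was 0.34 ± 0.13 (adjusted p = 0.490). In aERKO it gave 7581, 9514 and 9856 on the normal diet and 10157, 9672 and 10684 on the high-fat diet, 0.19 ± 0.13 (adjusted p = 0.686). Neuroserpin (Serpini1), an inhibitor of tissue plasminogen activator in neurons, lay between 26.7 and 116, near the array medians. C1 inhibitor (Serping1, chromosome 2), which controls the first complement component and kallikrein, lay between 19339 and 25999 on all arrays. Its differences ran from -0.12 to 0.14 in the comparisons of 2 groups, and the 95% intervals from -0.33 to 0.35.

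Of the members that do not inhibit proteases, Serpinh1 encodes the collagen chaperone HSP47. It gave 175, 316 and 357 in WT on the normal diet, 285, 211 and 318 in WT on the high-fat diet, 223, 249 and 353 in aERKO on the normal diet, and 465, 434 and 359 in aERKO on the high-fat diet. The aERKO high-fat samples lay above all other samples, the lowest of them by a narrow margin. Genotype on the high-fat diet gave 0.61 ± 0.26 (adjusted p = 0.271), diet in aERKO 0.60 ± 0.26 (adjusted p = 0.422), and a second probe set 0.54 ± 0.32 for both. On that second probe set the groups overlapped in both comparisons. There aERKO high-fat replicate 3, at 196, was below WT high-fat replicate 3, at 225, and aERKO normal diet replicate 3, at 203. The 10 stellate cell and fibroblast markers averaged 8.79 to 9.12 in aERKO on the normal diet and 9.12 to 9.54 on the high-fat diet, and 9.05 to 9.58 in WT on the high-fat diet. Their part in the Serpinh1 values was not tested. Pigment epithelium-derived factor (Serpinf1), an antiangiogenic protein, lay between 17303 and 22650. Its diet difference in aERKO was -0.10 ± 0.10 on the brightest probe set and -0.34 ± 0.12 on the other (adjusted p = 0.352).

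The intracellular B branch protects cells from proteases of their own or of leukocytes. Of its 18 genes 7 passed the filter, and 0 were called in any comparison. Serpinb8 (chromosome 1), an inhibitor of furin, had the lowest p of the family for diet in both genotypes. It gave 122, 157 and 120 in WT on the normal diet and 290, 274 and 270 on the high-fat diet. In aERKO it gave 92.8, 78.9 and 110 on the normal diet and 161, 131 and 259 on the high-fat diet. No high-fat sample of either genotype was below a normal diet sample of that genotype. The differences were 0.99 ± 0.25 in WT, 1.99-fold (95% interval 0.45 to 1.53, adjusted p = 0.258), and 0.82 ± 0.25 in aERKO, 1.76-fold (95% interval 0.28 to 1.36, adjusted p = 0.220). Neither passed after adjustment over all genes, and the interaction was -0.17 ± 0.36 (adjusted p = 0.963).

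A second probe set of Serpinb8 gave 0.89 ± 0.29 for diet in WT (adjusted p = 0.477) and 0.38 ± 0.29 in aERKO (adjusted p = 0.750), where its diet groups overlapped. Genotype gave -0.44 ± 0.25 for Serpinb8 on the normal diet (adjusted p = 0.536) and -0.61 ± 0.25 on the high-fat diet (adjusted p = 0.258), with groups that did not overlap on either diet. The second probe set gave -0.50 ± 0.29 on the normal diet (adjusted p = 0.573), where its groups overlapped, and -1.01 ± 0.29 on the high-fat diet (adjusted p = 0.117). With array quality weights the high-fat genotype difference passed (adjusted p = 0.0451). The bases upstream of Serpinb8, from RefSeq (GRCm38.p6, chr1:107589756-107590005, plus strand), are shown because of these diet values. The capitals mark GTTAAT, whose first base lies at -207, far from its place in the alpha-1-antitrypsin pair.

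Serpinb8: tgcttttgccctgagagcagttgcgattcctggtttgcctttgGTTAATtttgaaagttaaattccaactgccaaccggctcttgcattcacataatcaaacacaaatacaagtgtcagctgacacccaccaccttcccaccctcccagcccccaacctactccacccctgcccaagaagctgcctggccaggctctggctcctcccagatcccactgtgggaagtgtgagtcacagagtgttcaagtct

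Serpinb9, which inhibits granzyme B, lay between 156 and 329. It gave 0.28 ± 0.19 for diet in WT (adjusted p = 0.742) and 0.34 ± 0.19 in aERKO (adjusted p = 0.571). The WT diet groups did not overlap, nor did the genotype groups on the high-fat diet, where the difference was -0.26 ± 0.19 (adjusted p = 0.558). On a second, dimmer probe set of Serpinb9 the groups overlapped in both comparisons. It gave 0.11 ± 0.31 for diet in WT (adjusted p = 0.971) and -0.11 ± 0.31 for genotype on the high-fat diet (adjusted p = 0.919). Serpinb6e gave 75.8, 136 and 142 in WT on the normal diet, 163, 180 and 150 in WT on the high-fat diet, 146, 141 and 126 in aERKO on the normal diet, and 126, 154 and 76.1 in aERKO on the high-fat diet. Its interaction of -0.70 ± 0.41 did not pass (adjusted p = 0.840). Serpinb6b gave 74.9, 113 and 38.3 in WT and 152, 158 and 105 in aERKO on the normal diet, with 0.82 ± 0.37 for genotype (adjusted p = 0.392). Both are members of a cluster of close copies, so that the gene read is uncertain. Serpinb6a, the ortholog of the human inhibitor of cathepsin G, lay between 587 and 1114, and Serpinb9b between 12.6 and 121. The probe set shared by Serpinb9h, Serpinb9g, Serpinb9e and Serpinb9f lay between 8.06 and 104.

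Members whose brightest probe set was high on single arrays were Serpini2, Serpinb1a and Serpina4-ps1. Serpini2, a serpin of the pancreas, had signals of 176 in WT normal diet replicate 2, 128 in aERKO normal diet replicate 1 and 110 in WT high-fat replicate 3, which are the 3 arrays with the highest acinar scores. Elsewhere it lay between 2.18 and 77.8, and it passed the filter on dim genes through those 3 arrays alone. Serpinb1a, an inhibitor of neutrophil elastase, was 862 and 782 on the first 2 of these arrays and 231 to 568 on the others. Its second probe set did not share this order: it gave 254 and 162 on those arrays and was highest, at 271, on aERKO normal diet replicate 2. Neutrophil markers averaged 5.89 to 7.45 log2 units over the 12 arrays, with the highest on aERKO normal diet replicate 1. Neither gene was called, and the part of the acinar transcripts in their values was not tested.

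Serpina4-ps1, a pseudogene of kallistatin on chromosome 12, had a value that stood apart on 1 array. Its signals were 97.0, 30.1 and 105 in WT on the normal diet, 64.6, 195 and 2.24 in WT on the high-fat diet, 2920, 150 and 389 in aERKO on the normal diet, and 98.8, 164 and 199 in aERKO on the high-fat diet. The array at 2920 was aERKO normal diet replicate 1, the one with both acinar and muscle transcripts and the highest acute phase score. The genotype difference on the normal diet was 2.76 ± 0.93 (adjusted p = 0.228), and 1.15 to 3.67 over the alternatives; without that array it was 1.60 (adjusted p = 0.504). Its other 2 probe sets gave 2531 and 2251 on that array and 109 and 108 on replicate 2. On the brightest probe set the normal diet groups did not overlap and the test was not passed. On the probe set that read 2251, WT normal diet replicate 3, at 141, was above aERKO replicate 2, at 108.

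**Figure D3:**
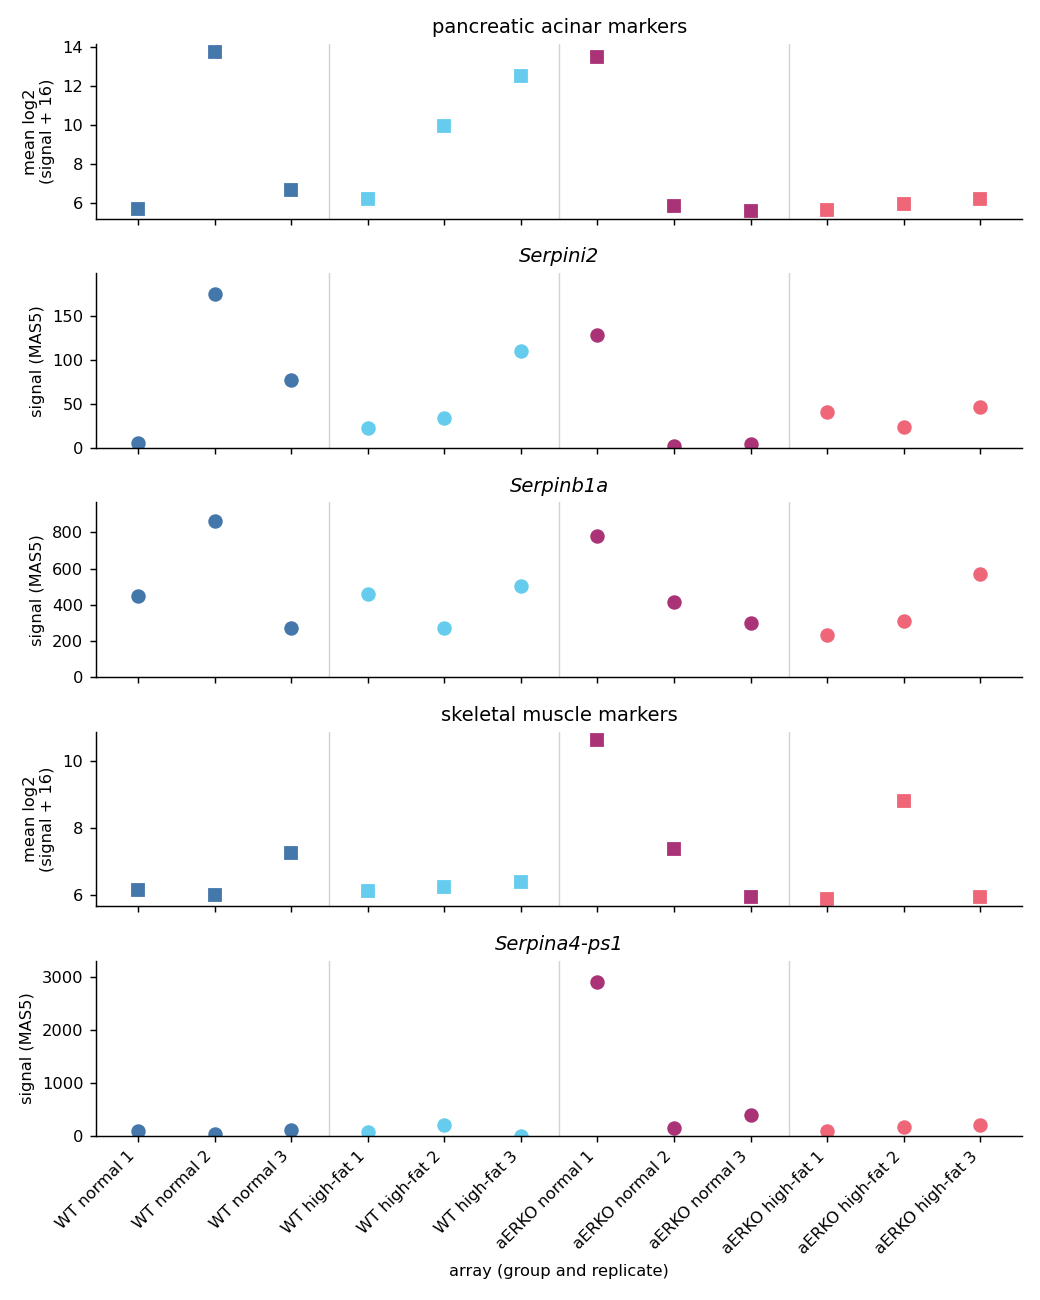
Mean log2 level of pancreatic acinar and skeletal muscle markers (squares) and the signal of Serpini2, Serpinb1a and Serpina4-ps1 (dots) on each of the 12 arrays, coloured by group. Serpini2 is highest on the 3 arrays with the highest acinar level, and Serpina4-ps1 reaches 2920 on aERKO normal diet replicate 1 alone.

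The other secreted members, Serpina11 and vaspin (Serpina12), an adipokine also made in liver, lay between 1154 and 1946 and between 219 and 471. Their differences in the comparisons of 2 groups ran from -0.25 to 0.24, and none passed.

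Groups that did not overlap were counted over the family, on the brightest probe set of each gene alone. Genotype on the normal diet separated 6 of the 24 genes (25%), 1 higher and 5 lower in aERKO, against 15.8% of all genes (6.18% higher, 9.62% lower). On the high-fat diet it separated 5 (20.8%), 1 higher and 4 lower, against 22.5% (10% higher, 12.5% lower). Diet separated 8 in WT (33.3%), 4 in each direction, against 14.3% (7.03% higher, 7.31% lower). It separated 2 in aERKO (8.33%), both higher, against 16.7% (9.07% higher, 7.66% lower). The 8 in WT were Serpina1b, Serpina1c, Serpina7 and Serpinc1, which were lower on the high-fat diet, and Serpinb6e, Serpinb8, Serpinb9 and Serpind1, which were higher. The diet comparisons within each genotype and the genotype comparisons within each diet share samples, so these counts are not independent of each other.

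**Figure D4:**
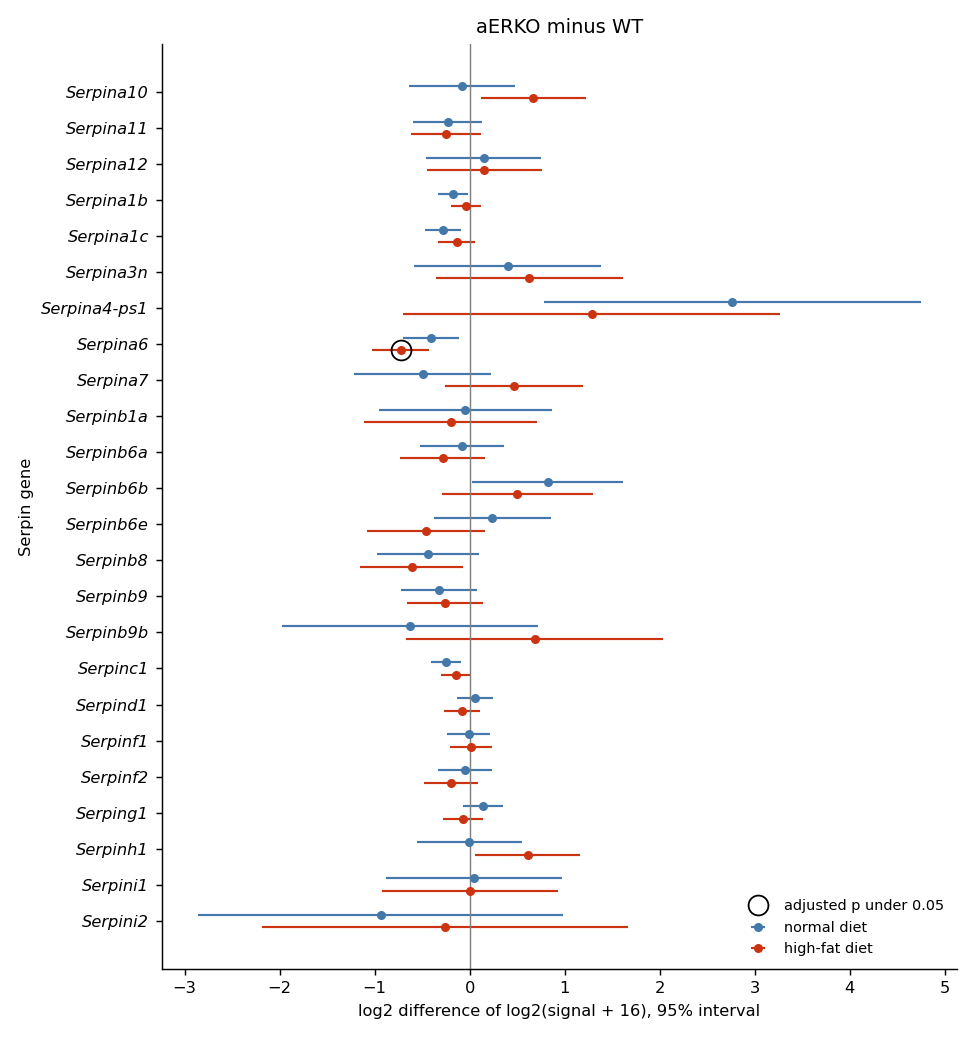
Difference aERKO minus WT of log2(signal + 16) for the 24 Serpin genes that passed the filter, on the normal diet (blue) and the high-fat diet (red), with 95% intervals. The circled Serpina6 value on the high-fat diet, -0.73, is the single one with an adjusted p under 0.05.

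**Figure D5:**
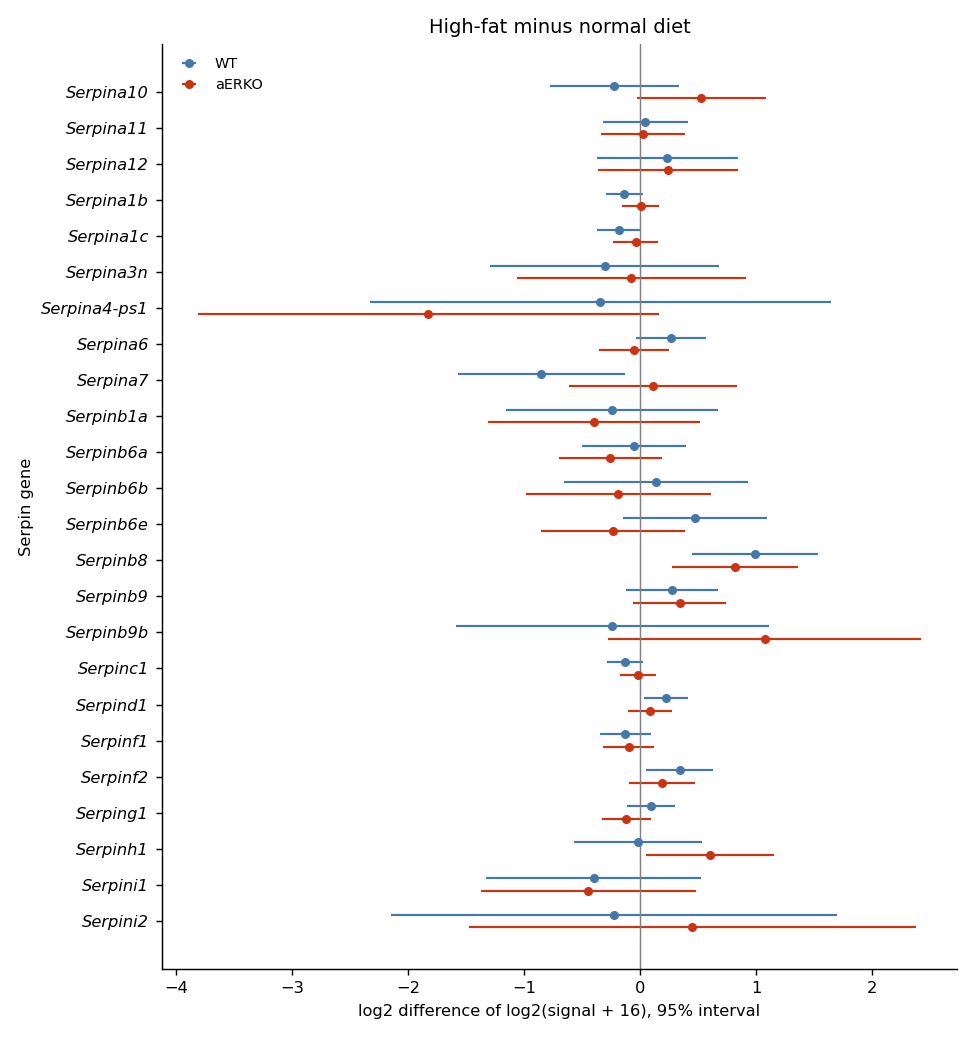
Difference high-fat minus normal diet of log2(signal + 16) for the same 24 genes in WT (blue) and aERKO (red), with 95% intervals. No value is called; Serpinb8 lies at 0.99 in WT and 0.82 in aERKO, with both intervals above 0.

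The partners of these inhibitors were read from lists of the same pathways. Of 25 target proteases, such as clotting factors, plasmin and granzymes, 20 passed the filter and 0 were called in any comparison by limma. The lowest p-values among them belonged to plasminogen (Plg), at -0.25 ± 0.07 for genotype on the normal diet (adjusted p = 0.116), and to factor X (F10), at -0.39 ± 0.11 on the high-fat diet (adjusted p = 0.0876). Of the 8 cofactors and receptors 0 were called. Among 18 further genes listed as protease inhibitors, taken without regard to family and with Agt among them, 2 were called. Murinoglobulin 1 (Mug1), a bait-region inhibitor of the alpha-2-macroglobulin family, rose by 0.84 ± 0.13 in aERKO on the normal diet (adjusted p = 0.00336), with signals of 22668, 15752 and 16344 in WT and 33253, 34146 and 29596 in aERKO. Inter-alpha-trypsin inhibitor heavy chain 2 (Itih2) fell by 0.51 ± 0.09 in aERKO on the high-fat diet (adjusted p = 0.0115), with signals of 22339, 21886 and 23786 in WT and 15084, 15153 and 17674 in aERKO. The Itih2 call was lost in 7 of 26 alternatives. Those included the fits without WT high-fat replicate 3 (adjusted p = 0.0540) or aERKO high-fat replicate 1 (0.0703) or 2 (0.0754), and the fit with each array centred on its median (0.403). Without the 4 arrays with a high acinar score 1 WT high-fat array was left, so no Itih2 test is given for that fit. Without those 4 arrays Mug1 was at 0.72 (adjusted p = 0.0874).

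Of 9 transcription factors that regulate liver genes, 1 was called. Cux2, a repressor expressed in female liver, fell by 3.08 ± 0.47 in aERKO on the normal diet (adjusted p = 0.00338) and fell by 3.34 ± 0.47 on the high-fat diet (adjusted p = 0.00148). The normal diet call of Cux2 was lost when just the normal diet groups were fitted (adjusted p = 0.0504), and the mean of its probe sets gave -1.47 (adjusted p = 0.0108). Its signals were 518 to 838 in the 6 WT samples and 19.6 to 212 in the 6 aERKO samples. The glucocorticoid receptor (Nr3c1), whose ligand the Serpina6 product carries, gave 0.36 ± 0.15 for diet in WT (adjusted p = 0.502) and was not called in any comparison.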

How the data were processed

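Liver RNA of 12 samples was hybridised to 1 Affymetrix array each. The deposited values are MAS5 signal intensities made with Affymetrix Expression Console, per the submitters' processing notes (their version numbers are not given in the sources used). On each array the deposited intensities have a trimmed mean of 500.0 (2% trimmed at each end), which was computed from the values. No count or depth lies behind an array signal, so precision is limited by the number of arrays, 3 per group.

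Of 45101 probe sets, 34958 have 1 gene symbol in the platform annotation given, 932 have several and 9211 are not listed there and stay unnamed. The brightest single-symbol probe set stood for a gene (18194 genes). Genes above the array's median signal on at least 3 of 12 arrays were tested (12264), on log2(signal + 16), with lmFit and eBayes with an intensity trend in limma 3.58.1 (R 4.3.3). There were 8 residual and 5.85 prior degrees of freedom. Tests were two-sided, adjusted by Benjamini-Hochberg, and called at an adjusted p under 0.05.

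The 5 comparisons were genotype on each diet, diet in each genotype, and their interaction. Tested on simulated data of 12264 genes, changes of 1 log2 unit were recovered in 50 to 62% of genes and changes of 2 log2 units in 82 to 89%, over the comparisons of 2 groups. The simulated noise was independent between genes and the number of changed genes was set in advance. The adjustment depends on that number, so these rates need not hold for the measured data. Genes given with full values are those called, those at 1 log2 unit or more with groups that did not overlap, and the 3 lowest p-values of each comparison; other members are given by range. Serpina1b, Serpina3n and Serpinb6b are given in full outside this rule, and the arrays on which Serpini2 and Serpinb1a were high are named likewise; these were chosen after their values were seen. Of the partner lists, called genes and up to 4 with the lowest p-values could be named. The members, lists and alternatives were chosen with earlier results of these data known. Replicate numbers were not used as a block. Upstream sequences are those of RefSeq (GRCm38.p6), matched by Entrez gene identifier for 19 of the 24 members that passed the filter.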

Additional observations from a re-analysis of the deposited data

How the results depend on the processing

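Each of 24 gene and comparison pairs was recomputed under up to 26 alternatives, and 23 kept their direction in all of them; Serpina1b for genotype on the normal diet turned from -0.18 to 0.037 with quantile normalization. Of the 20 pairs of Serpin genes, 17 were called neither in the main setting nor in any alternative. Among values not called in the main setting, genotype on the normal diet ranged from -0.56 to -0.24 for Serpina6, from -0.35 to -0.04 for Serpina1c and from -0.29 to -0.09 for Serpinc1, genotype on the high-fat diet from -0.87 to -0.39 for Serpinb8, and diet in WT from -1.06 to -0.43 for Serpina7. The count of Serpin genes called for genotype on the high-fat diet was 1 in the main setting. It was 0 with each array centred on its median, without the intensity trend, and with acinar and muscle scores as covariates. No count is given without the 4 arrays with a high acinar score, as 1 WT high-fat array is left. The count was 3 with array quality weights (Serpina6, Serpina10 and Serpinb8), and 0 to 1 when each array was left out in turn. The causes of these changes were not tested, and fits with arrays left out also have fewer degrees of freedom. In the other comparisons the count was 0 under every alternative run. Over all genes, the 150 calls for genotype on the normal diet became 71 to 173. The 243 on the high-fat diet became 94 to 944, leaving aside the fit with 1 WT high-fat array. The 9 for diet in WT became 0 to 24, the 59 for diet in aERKO 12 to 187, and the 0 of the interaction 0 to 2. Centring changed the share of calls higher in aERKO from 48.0% to 60.9% on the normal diet. Deviations of same-numbered replicates from their group means had correlations of -0.15 to 0.21. With 3 arrays per group, this cannot tell whether same-numbered samples share more than a number. With the replicate number as a block the Serpina6 difference was -0.73 (adjusted p = 0.0285) and the Serpin counts were 0, 1, 0, 0 and 0. When just the groups of a comparison are fitted, the interaction has no value. A median standard error of 0.20 for a comparison of 2 groups limits what differences under 1 could be called. The simulated recovery of 50 to 62% at 1 log2 unit holds for the number of changed genes set there.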
